A study of Rattus norvegicus with 2 samples.

Results

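The Reelin, LIS1 and Cdk5 migration genes are 10 rat genes whose products steer newborn cortical neurons along their radial path: Dcx, Dab1, Lrp8, Vldlr, Fyn, Pafah1b1, Ndel1, Nde1, Cdk5 and Cdk5r1. They were listed by symbol for their known roles, with earlier results of these data known, and were found by matching the RefSeq identifier of each gene in the tables to its rat symbol. Of the 10, 9 had a value, all in both libraries, among the 9894 genes listed in either library. Lrp8, which encodes the Reelin receptor ApoER2, had no match by identifier or by description and is not analysed here.

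The data were 2 mRNA libraries, 1 from control neurons and 1 from PIWIL1 RNAi neurons. Both groups were cells dissociated from the somatosensory cortex of Sprague-Dawley rat embryos at E16, electroporated as a suspension and cultured for 48 h in Neurobasal medium with serum and B27. The control cells received the control plasmid and the RNAi cells the plasmid directed against PIWIL1, a member of the PIWI family of small RNA-binding proteins, and which of the study's rat siRNAs was sequenced is not named in the sources used here. No source states that cells carrying the plasmid were sorted from the others, and the knockdown itself was not checked here. The method was digital gene expression profiling (DGE). Transcripts are cut at CATG sites and read as 21-base tags that begin with CATG, usually from the site nearest to the 3′ end. A gene's count is the sum of the copies of its tags, and its TPM is that count scaled to the clean tags of the library, with no term for gene length, so the values are compared between libraries and not between genes. The control library held 1947600 copies on 9496 genes, 57.5% of its 3386865 clean tags, and the RNAi library held 1865913 copies on 9297 genes, 56.5% of 3303360. The lowest number of copies of any listed tag was 2.

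Reelin is a large protein secreted in the marginal zone of the developing cortex. It binds the receptors VLDLR and ApoER2 on migrating neurons, and the intracellular adaptor DAB1 is then phosphorylated on tyrosine by FYN and related kinases. LIS1, the product of Pafah1b1, binds cytoplasmic dynein together with NDEL1 or NDE1 and couples the movement of the nucleus to microtubules. CDK5 is a kinase that depends on an activator such as p35, the product of Cdk5r1, and its substrates include NDEL1, DAB1 and doublecortin, a protein that binds and stabilizes microtubules and is encoded by Dcx. Loss of any of these pathways disturbs cortical layering, and mutations of human LIS1 and DCX cause lissencephaly.

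The tags below are those on which the results turn. They are the tags of Dab1, the tags of Dcx at its first 3 sites, and the most copied tag of every other gene with a value. Each is written 5′ to 3′ with the CATG cut site in capitals, and sites are numbered from the 3′ end of the transcript, so that site 1 is the CATG nearest to that end.
Dab1, site 1: CATGttccaaggtcccctcac
Dab1, site 2: CATGcccacacaaactgttat
Dab1, site 5: CATGtccacccctcctgatat
Dab1, site 6: CATGagccaatccgtgatcct
Dab1, site 7: CATGctgttcacgaaatttcc
Dab1, site 8: CATGatgaagctcaagggtgt
Dcx, site 1: CATGtgtgtgaggtgttgtga
Dcx, site 2: CATGtaagctggttagagcag
Dcx, site 3: CATGtggccctcttccctccc
Vldlr, site 4: CATGctctctagtgtggacct
Fyn, site 9: CATGtggtgtatataacgttt
Pafah1b1, site 2: CATGtagcaacatgaattgtt
Ndel1, site 1: CATGtggttaacagaagatac
Nde1, site 2: CATGtctgtgcacgtggccat
Cdk5, site 1: CATGgactttatttaatttca
Cdk5r1, site 2: CATGggcaatgaaatctccta

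The first question was which of the migration genes differed in abundance between control and PIWIL1 RNAi neurons. Dab1 was lower in the RNAi library, at 6.96 TPM against 18.01 TPM. None of the other 8 genes was called in either direction, with log2 ratios of RNAi to control between -0.51 and 0.29. For each gene, Fisher's exact test (two-sided) set its copies against the sum of copies on every other gene, and p-values were adjusted by the Benjamini-Hochberg method over all 9894 genes. A call required both an adjusted p (FDR) no greater than 0.05 and a log2 ratio of TPM at least 0.58 away from 0. By this rule 2.96% of all genes were called higher (293 genes) and 5.97% lower (591 genes). The split was 398 higher and 459 lower when the libraries were scaled by edgeR's TMM factors. The median log2 ratio was -0.08 over the 9 migration genes and -0.08 over all genes. Each group was 1 library, so what is compared is a pair of libraries rather than the conditions, and the intervals given here are exact 95% intervals that cover counting error only. In such bulk libraries fewer cells of a type and less RNA per cell cannot be told apart.

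**Figure D1:**
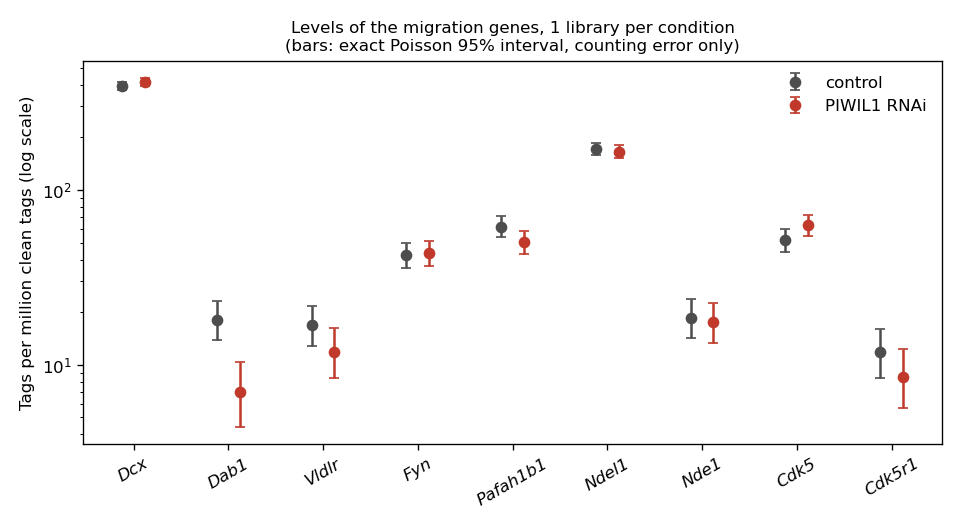
Abundance of the 9 migration genes in TPM (log axis) in the control and RNAi libraries, with exact 95% Poisson intervals that cover counting error only. Each point is 1 library; Dab1 lies at 18.01 TPM in the control and 6.96 TPM in the RNAi library, and its intervals do not overlap.

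In the Reelin pathway, Dab1 (NM_153621) had 61 copies in the control library and 23 in the RNAi library. This was 18.01 TPM with an interval of 13.8 to 23.1, and 6.96 TPM with an interval of 4.41 to 10.4. The RNAi level was 61.3% lower, a log2 ratio of -1.37 with an interval of -2.13 to -0.66 (Fisher's exact test, FDR = 0.000904).

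All 6 Dab1 tags had fewer copies in the RNAi library. The most copied tag, at site 7, had 37 copies in the control and 19 in the RNAi library, and the tag at site 1 had 7 and 4. The tags at sites 2, 5, 6 and 8, with 2, 7, 4 and 4 copies in the control, were not listed in the RNAi library. These 4 tags held 17 of the 61 control copies, and since tags seen once are missing from both tables, the RNAi count of each could have been 0 or 1. With 1 copy put back for every tag listed in only 1 library, Dab1 gave a log2 ratio of -1.14 (exact test, FDR = 0.00613). The 4 tags not listed in the RNAi library end in AT, AT, CT and GT. Over all tags with at least 20 copies, the median log2 ratio was -0.39 for the end AT, -0.25 for CT and -0.68 for GT. Corrected for the bases at the tag's 3′ end, as described in the methods, Dab1 gave -1.41. That correction scales copies, so a count of 0 stays 0. The part of tag ends in the Dab1 difference was not tested.

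No single tag carried the Dab1 call. Leaving out each of the 6 tags in turn gave log2 ratios from -2.55 to -1.20, and Dab1 was called lower in all 6 cases (Fisher's exact test, FDR between 0.0011 and 0.0080). The lowest ratio arose without the site 7 tag, where 24 copies stood against 4. The site 7 tag by itself gave a log2 ratio of -0.93 with an interval of -1.81 to -0.09 (Fisher's exact test over 16021 tags, FDR = 0.140) and was not called. Its ratio and that of the remaining tags did not differ beyond counting error (Fisher's exact test over 5114 genes, FDR = 0.261).

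The Dab1 call depends on how much cultures of 1 condition vary, which 1 library per group cannot show. The exact test of edgeR, given a coefficient of variation between cultures of 0.1, put Dab1 at an FDR of 0.0413, and given 0.2 at 0.713.

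Vldlr (NM_013155), which encodes a Reelin receptor, had 57 copies in the control and 39 in the RNAi library, or 16.83 and 11.81 TPM. The log2 ratio of -0.51, with an interval of -1.14 to 0.10, was not past the threshold (Fisher's exact test, FDR = 0.333). With the correction for tag ends the log2 ratio was -0.38. At this depth Vldlr would have been called lower at 30 copies or fewer, a log2 ratio of -0.89, and higher at 86 or more, a log2 ratio of 0.63. The most copied tag, at site 4, had 40 and 25 copies. The tag at site 1 had 6 copies in the control and was not listed in the RNAi library, while the tag at site 2, which shares 12 bases with it, had 7 and 8.

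Fyn (NM_012755), the kinase that phosphorylates DAB1, had 143 copies in the control and 144 in the RNAi library, or 42.22 and 43.59 TPM. This gave a log2 ratio of 0.05 with an interval of -0.30 to 0.39 (Fisher's exact test, FDR = 0.866), and this interval lies inside the threshold of 0.58 on either side. Fyn was read at all 10 of its sites up to site 10, and the tags lay on both sides of 0. The most copied tag, at site 9, had 40 and 33 copies, site 7 had 34 and 38, and site 1 had 24 and 36. The tag at site 2 had 9 and 20 copies, a log2 ratio of 1.19 that was not past the threshold over all tags (Fisher's exact test, FDR = 0.165).

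**Figure D2:**
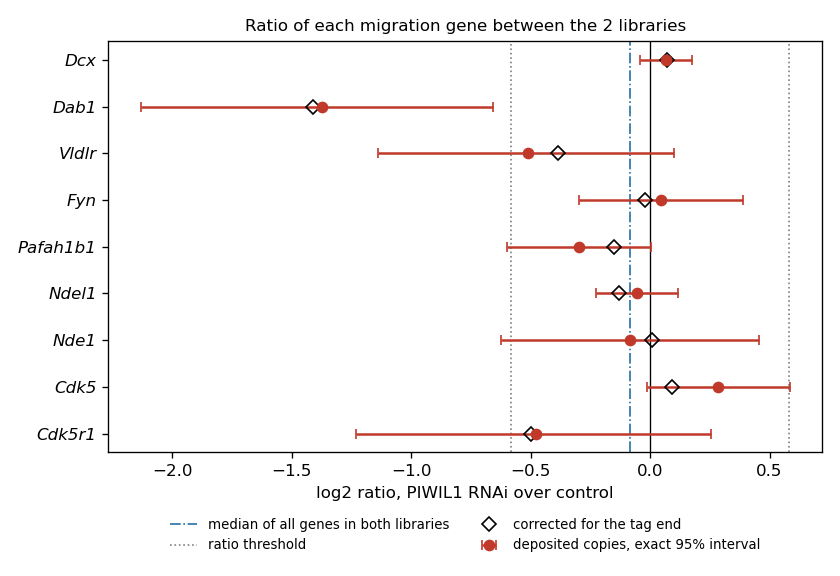
Log2 ratio of RNAi to control TPM for the 9 migration genes, with exact 95% intervals that cover counting error only (bars), the value after correction for the tag end (diamonds), the median of all genes (dash-dotted line) and the thresholds of 0.58 (dotted lines). Dab1, at -1.37, is the only gene whose whole interval lies below the lower threshold, and the other 8 intervals reach or cross 0.

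In the LIS1 group no gene was called. All 3 log2 ratios were below 0, although with edgeR's TMM factors those of Ndel1 and Nde1 were 0.04 and 0.01. Pafah1b1 (NM_031763), which encodes LIS1, had 209 copies in the control and 166 in the RNAi library, or 61.71 and 50.25 TPM. Its log2 ratio of RNAi to control was -0.30 with an interval of -0.60 to 0.005 (Fisher's exact test, FDR = 0.253). Pafah1b1 had 17 tags, 14 of them in both libraries. Of the 7 that reached 20 copies over both libraries, 5 were lower and 2 higher in the RNAi library. The site 2 tag had 45 and 27 copies and the site 13 tag 27 and 17. In the opposite direction, the site 14 tag had 13 and 23 copies. None of the 7 was called. With the correction for tag ends the log2 ratio of Pafah1b1 was -0.15. The tags at sites 2 and 1 overlap by 11 bases and those at sites 11 and 10 by 17 of their 21 bases, so the tags of each overlapping pair share part of the transcript that they read.

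Ndel1 (NM_133320), a partner of LIS1 and dynein, had 580 copies in the control and 545 in the RNAi library, or 171.25 and 164.98 TPM. Its log2 ratio of -0.05, with an interval of -0.23 to 0.12, was close to the median of all genes (Fisher's exact test, FDR = 0.915). Nearly all of its copies came from the site 1 tag, with 532 in the control and 495 in the RNAi library. The tag at site 4 had 22 and 27 copies and that at site 3 had 17 and 16.

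Nde1 (NM_053347), the paralog of Ndel1, had 63 copies in the control and 58 in the RNAi library, or 18.6 and 17.56 TPM. Its ratio on the log2 scale was -0.08 with an interval of -0.62 to 0.45 (Fisher's exact test, FDR = 0.965). No Nde1 tag lay at site 1. The most copied tag, at site 2, had 31 and 21 copies, site 3 had 13 in both libraries, and the site 9 tag was listed in the RNAi library only, with 5 copies. At this depth Nde1 would have been called lower at 34 copies or fewer in the RNAi library, a log2 ratio of -0.85, and higher at 93 copies or more, a log2 ratio of 0.60.

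Cdk5 and its activator lay on opposite sides of 0. Cdk5 (NM_080885) had 175 copies in the control and 208 in the RNAi library, or 51.67 and 62.97 TPM. The log2 ratio was 0.29 with an interval of -0.01 to 0.58. The unadjusted p of Fisher's exact test was 0.0361 and the FDR 0.149, so Cdk5 was not called. All 4 Cdk5 tags had more copies in the RNAi library. These were 147 and 167 at site 1, 14 and 15 at site 2, 7 and 17 at site 3, and 7 and 9 at site 4. When copies were corrected for the bases at the tag's 3′ end, as described in the methods, the log2 ratio of Cdk5 was 0.09.

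Cdk5r1 (NM_053891) had 40 copies in the control and 28 in the RNAi library, or 11.81 and 8.48 TPM. The log2 ratio was -0.48 with an interval of -1.23 to 0.25 (Fisher's exact test, FDR = 0.490). The most copied tag, at site 2, had 21 and 22 copies, whereas site 3 had 14 and 4. The site 1 tag had 3 copies in the control and was not listed in the RNAi library. The difference between the site 2 tag and the other Cdk5r1 tags had an unadjusted p of 0.0408 and did not pass the adjustment (Fisher's exact test over 5114 genes, FDR = 0.186). Cdk5r1 would have been called lower at 18 copies or fewer in the RNAi library, a log2 ratio of -1.12, and higher at 65 copies or more, a log2 ratio of 0.74.

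The Cdk5r1 tag closely resembles a tag of its paralog Cdk5r2, which encodes the other CDK5 activator and was chosen for description after its values were seen. The Cdk5r2 tag is shown to compare it with the Cdk5r1 tag given above.
Cdk5r2, site 1: CATGggcaacgagatctccta
Of 21 bases, 19 were the same. The changes from the Cdk5r1 to the Cdk5r2 tag were T10C and A13G, with positions counted from 1 at the C of CATG. Cdk5r2 had 21 copies in the control and 11 in the RNAi library, a log2 ratio of -0.90 with an interval of -2.10 to 0.22 (Fisher's exact test, FDR = 0.323), so neither activator was called.

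Doublecortin, the migration gene with the most copies behind its value, was not called. Dcx (NM_053379) had 1337 copies in the control and 1365 in the RNAi library, or 394.76 TPM (373.9 to 416.5) and 413.22 TPM (391.6 to 435.7). This corresponds to a log2 ratio of 0.07 with an interval of -0.04 to 0.18 (Fisher's exact test, FDR = 0.304). The interval is the narrowest of the 9 genes and lies well inside the threshold of 0.58 on either side. With edgeR's TMM factors the log2 ratio of Dcx was 0.16 (exact binomial test, FDR = 0.0271). With DESeq2's size factors it was 0.15 (exact binomial test, FDR = 0.0415). Under these 2 scalings Dcx passed the FDR but not the ratio threshold.

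Dcx had 39 tags at 29 sites, the farthest at site 46. Most copies came from the site 1 tag, with 882 in the control and 930 in the RNAi library. The site 2 tag had 115 and 128 copies, the site 5 tag 41 and 59, and the site 7 tag 25 and 37. Of the 10 Dcx tags with at least 20 copies, 8 were above 0 and 2, at sites 3 and 12, below 0 on the log2 scale. The site 12 tag had 15 and 8 copies, a log2 ratio of -0.87, and was not called.

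The site 3 tag of Dcx had 74 copies in the control and 31 in the RNAi library. Its log2 ratio was -1.22 with an interval of -1.87 to -0.60 (Fisher's exact test over 16021 tags, FDR = 0.00106), and it was the only tag of the 9 genes that was called. Of all tags with at least 20 copies, 4.09% were called higher and 7.22% lower. The remaining Dcx tags had 1263 and 1334 copies, a log2 ratio of 0.11 with an interval of 0.003 to 0.23. The site 3 tag differed from them (Fisher's exact test over 14431 tags, FDR = 0.000295), a comparison of each tag with the rest of its gene that was chosen after the values were seen. Such a difference was found for 10.2% of all tags tested and for 1 of 32 tags of the migration genes. Under 5 other scalings and treatments of tags the log2 ratio of the site 3 tag lay between -1.32 and -1.12, and it was called in each. The tag ends in CC, like the site 7 tag of Dab1, and tags with this end had a median log2 ratio of 0.04.

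Some Dcx tags differed from a more copied Dcx tag of the same site by 1 base. There were 10 of them, with 15 copies in the control (1.12% of Dcx) and 21 in the RNAi library (1.54%). The most copied was a site 1 tag that carries the change T14G from the main tag, with positions counted from 1 at the C of CATG.
Dcx, site 1, variant: CATGtgtgtgaggggttgtga
It had 9 copies in the control and 6 in the RNAi library, and leaving all such tags out changed no call among the 9 genes.

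**Figure D3:**
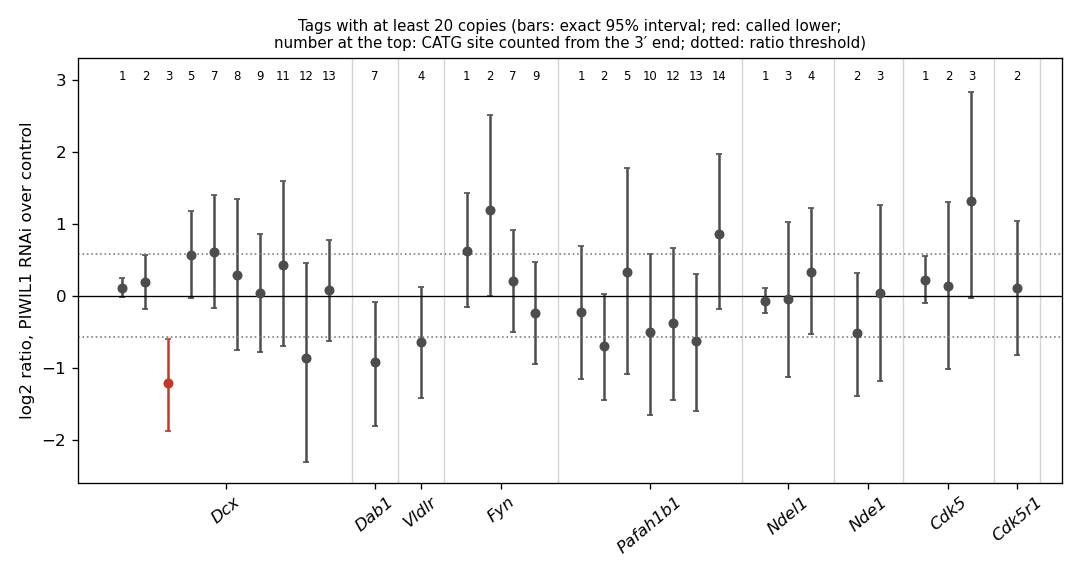
Log2 ratio of RNAi to control for each tag of the 9 migration genes with at least 20 copies over both libraries, plotted by gene, with exact 95% intervals that cover counting error only and the site number above each tag. The Dcx tag at site 3, at -1.22, is the only called tag; 8 Dcx tags are above 0, and the Dcx tag at site 12 is below 0 with an interval that overlaps that of site 3.

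The genes differed in where along the transcript their tags came from. In this method the site nearest to the 3′ end is usually read most. Over all genes with at least 20 copies the median share of site 1 was 58.9% in the control library (6486 genes) and 61.3% in the RNAi library (6277 genes). Ndel1 and Cdk5 lay above that median, with 91.7% and 84.0% of copies at site 1 in the control and 91.2% and 80.3% in the RNAi library. Dcx was nearer to it, at 66.9% and 69.5%. Dab1 had only 11.5% and 17.4% of its copies there, Pafah1b1 11.5% and 12.05%, and Fyn 16.8% and 25%. Vldlr and Cdk5r1 had 10.5% and 7.5% in the control and no listed copies in the RNAi library, and Nde1 had none listed in either. The most copied tag was not called as differing from the other tags of its gene for any of the 9 genes. Over 5114 genes 12.3% were called (Fisher's exact test, FDR of 0.05 or less), and 0 of 9 is close to that share. Copies were few for some genes. The most copied tag lay above the other tags by 1.73 on the log2 scale for Cdk5r1, whose other tags had 19 and 6 copies. For Dab1 it lay above them by 1.62, with 24 and 4 copies. No tag of the 9 genes ended in 8 or more A.

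**Figure D4:**
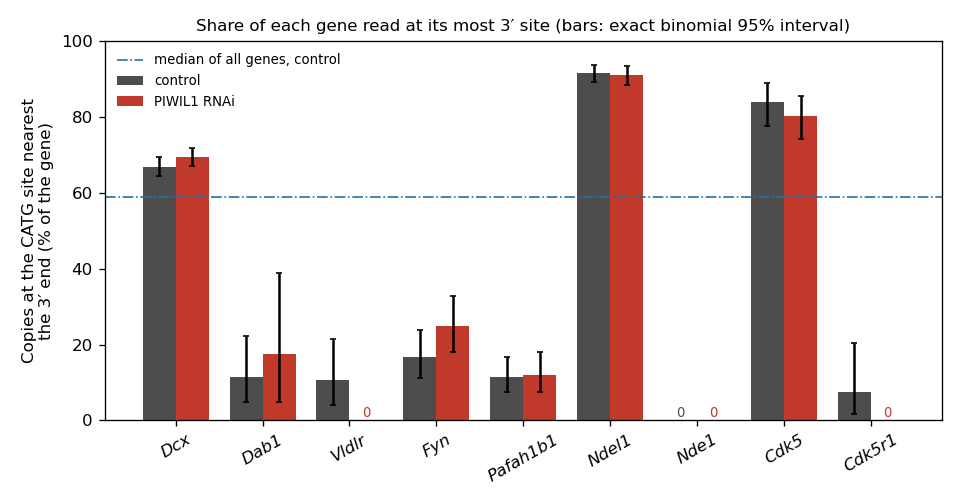
Share of each migration gene's copies that came from the CATG site nearest to the 3′ end, in percent, in the control and RNAi libraries, with exact binomial 95% intervals and, as a dash-dotted line, the median of all genes in the control. Ndel1 and Cdk5 have over 80% of their copies there in both libraries, and Vldlr, Cdk5r1 and Nde1 have no listed copies there in the RNAi library.

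The second question was how the other genes of the same pathways behaved. Of 69 listed symbols, 59 had a value, under 60 identifiers. Of the 60, 1 was called higher and 3 lower, against 2.96% and 5.97% of all genes. Their median log2 ratio was -0.14, with 21 ratios above 0 and 39 below, and over all genes 4252 were above 0 and 5642 below. The 4 called genes were Dctn2, Cdh2, Dync1i2 and Dclk1. None of them passed edgeR's exact test when a spread between cultures of 0.1 was allowed (FDR between 0.0668 and 0.134).

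Among 18 Reelin pathway genes with a value, 1 was called lower and none higher, and the median was -0.15, or 0.04 with the correction for tag ends. Cdh2, which encodes N-cadherin, an adhesion protein of migrating neurons, fell from 1064 copies to 680, or 314.15 to 205.85 TPM. Its log2 ratio was -0.61 with an interval of -0.75 to -0.47 (Fisher's exact test, FDR = 4.40e-15), and 8 of 8 tags that reached 20 copies were lower. Cdh2 was short of the ratio threshold, and not called, with edgeR's TMM factors (-0.52) and with the correction for tag ends (-0.45). The most copied gene of the group was Cfl1, which encodes the actin-severing protein cofilin, with 10053 copies in the control and 7800 in the RNAi library and a log2 ratio of -0.33. It passed the FDR but not the ratio threshold (Fisher's exact test, FDR = 1.77e-42). Reln itself, named after its values were seen, had 55 and 36 copies, a log2 ratio of -0.58 with an interval of -1.22 to 0.06 (Fisher's exact test, FDR = 0.246), and was not called.

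Among 18 LIS1 and dynein genes, 1 was called higher and 1 lower, and the median was -0.07, or 0.02 with the correction for tag ends. Dctn2, which encodes the dynactin subunit dynamitin, rose from 446 to 675 copies, or 131.69 to 204.34 TPM. The log2 ratio was 0.63 with an interval of 0.46 to 0.81 (Fisher's exact test, FDR = 1.80e-12), and 3 of 4 tags that reached 20 copies were higher. Dync1i2, which encodes a dynein intermediate chain, fell from 464 to 279 copies, or 137.0 to 84.46 TPM. The log2 ratio was -0.70 with an interval of -0.92 to -0.48 (Fisher's exact test, FDR = 1.49e-08), and 4 of 6 tags that reached 20 copies were lower. The most copied gene, Ywhae, encodes a 14-3-3 protein that binds phosphorylated NDEL1, and it had 10952 and 10146 copies, a log2 ratio of -0.07, or 0.05 with the correction for tag ends. After correction for tag ends Dctn2 gave 0.51, below the ratio threshold, Dync1i2 was still called at -0.59, and the dynactin gene Dctn1 was called higher at 0.67.

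Among 12 genes around CDK5 none was called, and the median was -0.20. The most copied was Ppp1r9b, which encodes the scaffold spinophilin, with 1209 copies in the control and 1551 in the RNAi library. Its log2 ratio of 0.40 passed the FDR but not the ratio threshold (Fisher's exact test, FDR = 1.07e-12).

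Among 12 identifiers of doublecortin-related genes, lissencephaly genes and others grouped with them, 1 was called lower and none higher, and the median was -0.09. Dclk1, which encodes a kinase related to doublecortin, was listed under 2 identifiers. The identifier NM_021584 fell from 330 to 188 copies, or 97.44 to 56.91 TPM, a log2 ratio of -0.78 with an interval of -1.04 to -0.51 (Fisher's exact test, FDR = 1.96e-07), and 3 of 3 tags that reached 20 copies were lower. The other, NM_053343, had 1226 and 1218 copies, a log2 ratio of 0.03 with an interval of -0.09 to 0.14, and was not called. It is named after its values were seen. With the copies of both identifiers summed the log2 ratio was -0.11, and Dclk1 was not called. Most of the lower identifier's copies came from its site 1 tag, shown here beside the site 1 tag of the other identifier because the 2 differ in sequence and in ratio.
Dclk1 NM_021584, site 1: CATGttactctctcccgaact
Dclk1 NM_053343, site 1: CATGttcttaaactaataaag
The first had 241 copies in the control and 111 in the RNAi library, and the second 555 and 544. The most copied gene of this group, Ppp1cc, a catalytic subunit of protein phosphatase, had 1776 and 1945 copies, a log2 ratio of 0.17 (Fisher's exact test, FDR = 0.000629), and was not called. With the correction for tag ends its ratio was -0.06.

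**Figure D5:**
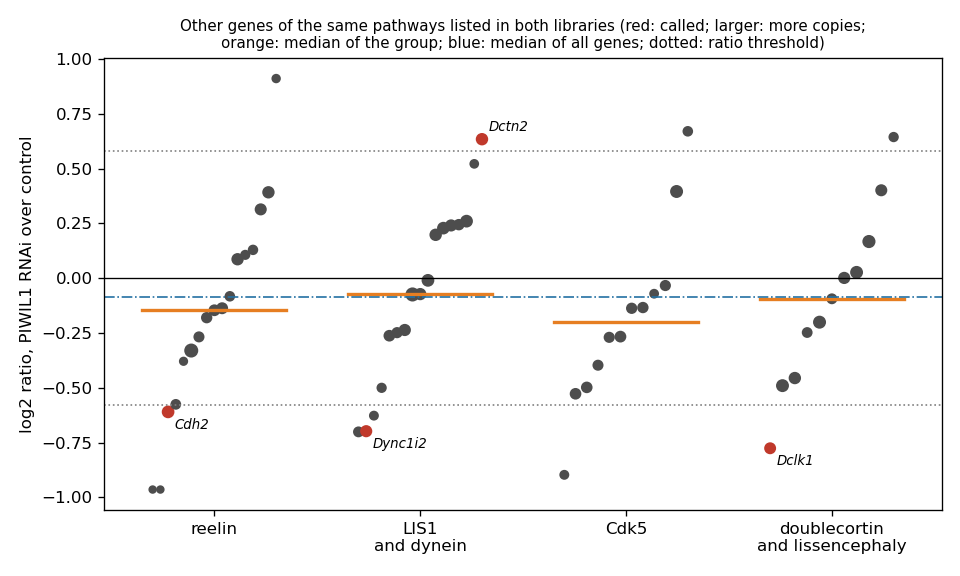
Log2 ratio of RNAi to control TPM for the other genes of the pathways listed in both libraries, by role, 1 point per identifier and larger for more copies. The 4 called genes are in red, with Dctn2 at 0.63, Cdh2 at -0.61, Dync1i2 at -0.70 and Dclk1 at -0.78, and the orange lines are the medians of the roles, between -0.20 and -0.07.

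The cell type markers of the libraries were set beside these values. Of 34 markers with a value, 1 was called higher and 2 lower, near the 2.96% and 5.97% of all genes. The cultures carried neuronal markers, with 6 of 7 listed, although Syn1 had no value, and their summed level was 3838 TPM in the control and 3376 TPM in the RNAi library. Of the 6, Map2 was called lower, with 24 and 8 copies, and none higher. The log2 ratio of Map2 was -1.55 with an interval of -2.91 to -0.35, and its FDR was close to the cut-off (Fisher's exact test, FDR = 0.0461). Tubb3, Neurod6 and Stmn2 passed the FDR but not the ratio threshold, with log2 ratios of -0.49, -0.55 and -0.36, and so did Gap43 in the other direction, with 788.34 and 1071.94 TPM and a log2 ratio of 0.44. Progenitor markers, with 5 of 6 listed and none called, summed to 968 and 1269 TPM. Vim, with 789.52 and 1127.34 TPM, was the only one above 0 on the log2 scale, and the other 4 were below 0, with log2 ratios of -0.50 for Nes, -0.26 for Sox2, -0.25 for Pax6 and -0.52 for Hes5. The median over the 5 was -0.26. Markers of Cajal-Retzius cells, the source of Reelin, summed to 18.0 and 12.1 TPM over 2 of 4 listed symbols. Nearly all of this sum was Reln, described above, with 55 and 36 copies. Calb2 had 6 and 4 copies, and neither gene was called. Lhx5 had no value, and the symbol Trp73 is not in the RefSeq table used, so its gene could not be looked up. Interneuron markers summed to 54.9 and 55.7 TPM over 5 of 5 genes, with Lhx6 called lower. The log2 ratio of Lhx6 was -0.92, or -0.42 with the correction for tag ends, which is short of the ratio threshold. Astrocyte markers summed to 86.5 and 76.6 TPM over 3 of 4 genes, oligodendrocyte markers to 3.84 and 4.54 TPM over 4 of 4, microglia markers to 9.74 and 13.9 TPM over 3 of 5, endothelial markers to 0 and 0.605 TPM over 1 of 3, and markers of meninges and fibroblasts to 486 and 459 TPM over 3 of 3. Red blood cell markers summed to 27.5 and 43.6 TPM over 2 of 3 listed symbols, with Hba-a1 called higher, and the symbol Hba1 is not in the RefSeq table used. The part of cell composition in the Dab1 difference was not tested.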

How the data were processed

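Total RNA of 1 control and 1 PIWIL1 RNAi culture was made into tag libraries. The authors deposited, for each gene and each tag, a count without normalization (the tag copies). A TPM column, deposited beside each count, holds the count scaled to the library's clean tags without a term for gene length, which makes it a CPM. The submitters' processing notes name the rat build rn4. The programs that matched and counted tags are not given in the sources used here, no coordinates are given because no genome of that build was used, and columns of GO terms and of the authors' comparisons were not used. In the tables every tag was listed under 1 gene, and clean tags were recovered from count and TPM.

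Symbols were taken from a RefSeq table (assembly GRCr8), which matched 9331 of 9894 identifiers (94.3%), and 64 identifiers shared a symbol. Two-sided Fisher's exact tests were run in Python 3.11.15 with SciPy 1.17.1, NumPy 2.4.6 and pandas 2.3.3 on each gene against all other tags on genes, on each of 16021 tags with at least 20 copies over both libraries, and on the most copied tag against the other tags of its gene, with Benjamini-Hochberg adjustment. Intervals of ratios were exact (Clopper-Pearson), intervals of TPM were exact Poisson, and both cover counting error only. Plots were drawn with Matplotlib 3.10.9. The tests were tried on simulated counts with counting error only, which hold no variation between cultures. Scaling alternatives used edgeR 4.0.16 (TMM factors 1.02 and 0.976) and DESeq2 1.42.0 (size factors 1.04 and 0.959) in R 4.3.3 with an exact binomial test. For the tag-end correction, each tag was put in a class by its final dinucleotide, or by how long a run of A it ended in. The median log2 ratio of each class, estimated on other genes, was taken out of each tag. The libraries differed by tag end. Over all tags with at least 20 copies, class medians ran from -0.70 for the end TG to 1.95 for 13 or more A. Some class medians thus lay past the ratio threshold of 0.58.

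All members are named, and of the pathway list every called gene and the most copied gene of each role; others are marked as named after their values were seen. The members and lists were chosen with earlier results of these data known.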

Additional observations from a re-analysis of the deposited data

How the results depend on the processing

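With 1 library per group no library could be left out, and the intervals cover counting error only. No paired analysis was possible because each group had 1 library and the labels give no replicate numbers. Over 17 alternatives none of the migration genes was called higher, and Dab1 stayed the 1 called lower in 14. The count was 0 with edgeR's exact test at an assumed biological coefficient of variation (BCV) of 0.2 or 0.4 and with only the most copied tag of each gene, where Dab1 gave -0.93 (exact test, FDR = 0.144). Several of the 14 had little or no room to change the Dab1 call. No Dab1 tag ended in 8 or more A, none was 1 base from a more copied tag, and Dab1 had 1 identifier. Calling by FDR alone only loosens the rule, and adding 1 copy changed the ratio but not the test. Among the other pathway genes 1 was called higher and 3 lower. These counts were 0 and 0 at a BCV of 0.1, 0.2 or 0.4, 0 and 0 at an absolute log2 ratio of at least 1, 2 and 7 with only the most copied tag, 9 and 9 by FDR alone, and 1 and 2 with TMM, with DESeq2's factors and with the tag-end correction, the last with Dctn1 in place of Dctn2. Over all genes, 293 higher and 591 lower became 114 and 170 at a BCV of 0.1, 15 and 2 at 0.2, 0 and 0 at 0.4, 195 and 377 with the tag-end correction, 146 and 262 at a log2 ratio of at least 1, and 706 and 943 by FDR alone. DESeq2's size factors gave 382 and 475. Without calls on either side, some log2 ratios changed sign. Fyn was -0.0196 with the tag-end correction and -0.24 with its most copied tag, Ndel1 0.0407 with TMM and 0.0312 with DESeq2's factors, Nde1 0.0112 with TMM, 0.0017 with DESeq2's factors and 0.0068 with the tag-end correction, and Cdk5r1 0.10 with its most copied tag. The most copied tags of Cdk5r1 and Cdk5 were -0.0283 and -0.0257 with the tag-end correction and that of Ndel1 0.0265 with TMM. TMM and DESeq2's factors each shift the log2 ratio of every gene by the same amount. They moved the median over all genes from -0.085 to 0.0095 and to -4.3e-06, so sign changes under them are this common shift. The cause of the other sign changes was not tested. No most copied tag of a migration gene was called as differing from its gene's other tags with at least 50 copies on each side (6 genes tested) or with the tag-end correction (9 genes). Over all genes tested the shares called were 18.1% and 7.08%. Leaving out tags 1 base from a more copied tag, leaving out each tag in turn, each tag against the rest of its gene and the settings for the third-site tag of Dcx were chosen after seeing the data.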

Other observations

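Several pathway genes passed the FDR of Fisher's exact test without reaching the ratio threshold and were named after their values were seen. In the dynein group, the dynactin gene Dctn1 had 887 copies in the control and 1036 in the RNAi library (log2 ratio 0.26, exact test FDR = 0.000219), and the intermediate chain gene Dync1i1 had 786 and 898 (0.23, exact test FDR = 0.00332). Among genes of tubulin, whose mutations cause lissencephaly and related malformations, Tubb3 had 1538 and 1068 copies (-0.49, exact test FDR = 2.30e-14), Tubb2b 620 and 441 (-0.46, exact test FDR = 2.94e-05) and Tuba1a 1573 and 1335 (-0.20, exact test FDR = 0.0103). The gamma tubulin gene Tubg1 lay on the other side, with 271 and 349 copies (0.40, exact test FDR = 0.00279). With the tag-end correction Tuba1a gave 0.10 and Dync1i1 0.04.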
